A study of Mus musculus with 15 samples.

Results

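The genes described here are 35 genes of heart and pulmonary vein muscle, followed through whole-lung RNA-seq libraries of a mouse model of allergic asthma. They were chosen by symbol, without use of a measured value as a criterion, although earlier results of these data were known. All 35 were found among the 24054 genes of the deposited table. All 35 also passed the filter on low counts, which left 15905 genes to test. Libraries came from 15 female wild-type Balb mice, 5 in each of 3 groups. The saline group had a sham sensitisation and an isotype antibody as control. In the OVA group the mice were sensitised systemically to ovalbumin, inhaled it as a nebulised challenge and also had the isotype antibody. The anti-IL-4Ra group had the same ovalbumin treatment and received a monoclonal antibody to the mouse IL-4 receptor alpha chain at 30 mg/kg. All animals of the 3 groups therefore received an antibody, and the ages, the number of challenges and the way the lungs were trimmed from the heart and great vessels are not stated in the sources read for this work.

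In mice, sheaths of striated cardiac muscle extend from the left atrium along the pulmonary veins into the lung, so heart muscle transcripts are a regular component of whole-lung RNA. This muscle is atrial in type: its sarcomeres carry atrial myosin light chains, its calcium store is regulated by sarcolipin, and its cells can make atrial natriuretic peptide. Ventricular muscle is told apart by other light chains, above all Myl2. In bulk RNA, fewer cells of a type and less RNA per cell cannot be told apart, and this holds for every level below.

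Levels are given in CPM, the usual unit of counts scaled to the total of each library, here after edgeR's TMM scaling. Totals were 16774285 to 27570666 expected counts in saline, 10042825 to 14706131 in OVA and 12317805 to 16914475 in anti-IL-4Ra libraries, so that 3 counts stood for 0.113 to 0.308 CPM. The ribosomal RNA precursor Rn45s took 1.19% to 2.88% of the saline, 4.31% to 12.4% of the OVA and 1.65% to 12.4% of the anti-IL-4Ra libraries. Several libraries stood apart in the cardiac genes. Saline library 1 was the highest of its group for 31 of the 35 genes, and OVA library 5 was the lowest of its group for 30. Anti-IL-4Ra library 2 was the lowest of its group for 22 genes and anti-IL-4Ra library 1 for 11, with 8 and 5 of the 35 genes at a count of 0. The numbers of genes called are given below with and without these libraries, as are some of the fold changes that moved by over 1.5 times.

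Start regions of 4 of the genes are shown as examples, 3 that varied together among the libraries and Corin, which did not. Each is the RefSeq window on GRCm38.p6 of 250 bases before to 50 bases after an annotated start, 5′ to 3′ on the strand of the gene. Capitals mark the matches on either strand to the motifs searched. The M-CAT motif, bound by TEAD factors, was searched as CATTCCT. The site of the zinc finger factors called GATA was searched as AGATAA. The box near the start of many regulated genes was searched as TATAAA, and the CArG box is that of serum response factor.
Myl7, chr11:5898733-5899032, minus strand, with an M-CAT match beside a CArG box: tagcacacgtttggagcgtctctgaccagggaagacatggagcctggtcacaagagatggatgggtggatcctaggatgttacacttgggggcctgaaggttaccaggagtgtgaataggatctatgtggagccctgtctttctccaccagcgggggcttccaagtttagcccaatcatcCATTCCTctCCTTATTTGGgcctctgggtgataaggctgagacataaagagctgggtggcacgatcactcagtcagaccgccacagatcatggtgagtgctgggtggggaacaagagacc
Tnnt2, chr1:135836084-135836383, plus strand, with a GATA and an M-CAT match: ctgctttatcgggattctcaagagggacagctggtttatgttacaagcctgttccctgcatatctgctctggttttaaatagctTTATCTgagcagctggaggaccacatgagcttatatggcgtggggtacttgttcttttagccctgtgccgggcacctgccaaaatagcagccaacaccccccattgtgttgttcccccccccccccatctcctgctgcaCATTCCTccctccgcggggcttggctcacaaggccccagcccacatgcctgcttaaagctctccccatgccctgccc
Myh6, chr14:54966558-54966857, minus strand, with an M-CAT match and a TATA box: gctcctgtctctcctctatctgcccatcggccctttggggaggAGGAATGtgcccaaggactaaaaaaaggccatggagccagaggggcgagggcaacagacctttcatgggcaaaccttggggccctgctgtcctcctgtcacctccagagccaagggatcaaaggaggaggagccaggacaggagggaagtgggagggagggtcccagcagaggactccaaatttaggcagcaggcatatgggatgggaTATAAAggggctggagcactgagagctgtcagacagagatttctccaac
Corin, chr5:72504491-72504790, minus strand, with no match to any of the motifs searched: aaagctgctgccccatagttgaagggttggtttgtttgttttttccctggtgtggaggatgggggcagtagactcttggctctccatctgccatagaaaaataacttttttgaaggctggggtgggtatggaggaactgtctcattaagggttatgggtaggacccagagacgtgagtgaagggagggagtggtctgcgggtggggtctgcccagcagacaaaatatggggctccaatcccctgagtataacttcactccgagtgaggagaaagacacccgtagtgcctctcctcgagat
RefSeq windows were found for 29 of the 35 genes, 38 windows in all. The M-CAT motif was present in 10.5% of them against 5.36% of all 32851 windows, the zinc finger site in 13.2% against 11.2%, and the TATA box in 13.2% against 13.6%. The CArG box was in 13.2% against 1.63%, and the MEF2 site, a motif of muscle genes also searched on both strands, in 13.2% against 3.19%. MEF2 matches lay in windows of Casq2, Mybpc3, Myoz2, Ttn and Xirp2, and CArG boxes in windows of Actc1, Ldb3, Myl7 and Nebl. Windows of Myl4 and Tnnc1, whose correlation r with Myl7 was 0.97 each as described below, held no match. Another window of Tnnt2 held none either. Nebl, with r of 0.01, had M-CAT, zinc finger and CArG matches, and Gja5, with r of -0.07, had none. The relation of matches to the shared variation was not tested. In the Myh6 window the TATAAA match lay just after the annotated start. The motifs were searched separately and their matches may overlap, and a match describes these letters only, whatever its place in the window.

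Most of the 35 genes varied widely between lungs of the same group, and they did so together. The SD of log2 CPM within groups had a median of 1.10 over the 35 genes, beside 0.29 over all genes tested. The biological coefficient of variation estimated by edgeR had a median of 0.724 over the 35 genes and 0.214 over all genes. In saline library 1, the median gene stood 1.24 log2 units above the mean of its group. OVA libraries 1 and 3 stood 1.17 and 1.42 above theirs, and OVA library 5 was at -1.93. In the anti-IL-4Ra group, library 5 was at 1.13, libraries 3 and 4 at 0.64 and 0.51, and libraries 1 and 2 at -0.89 and -1.22.

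**Figure D1:**
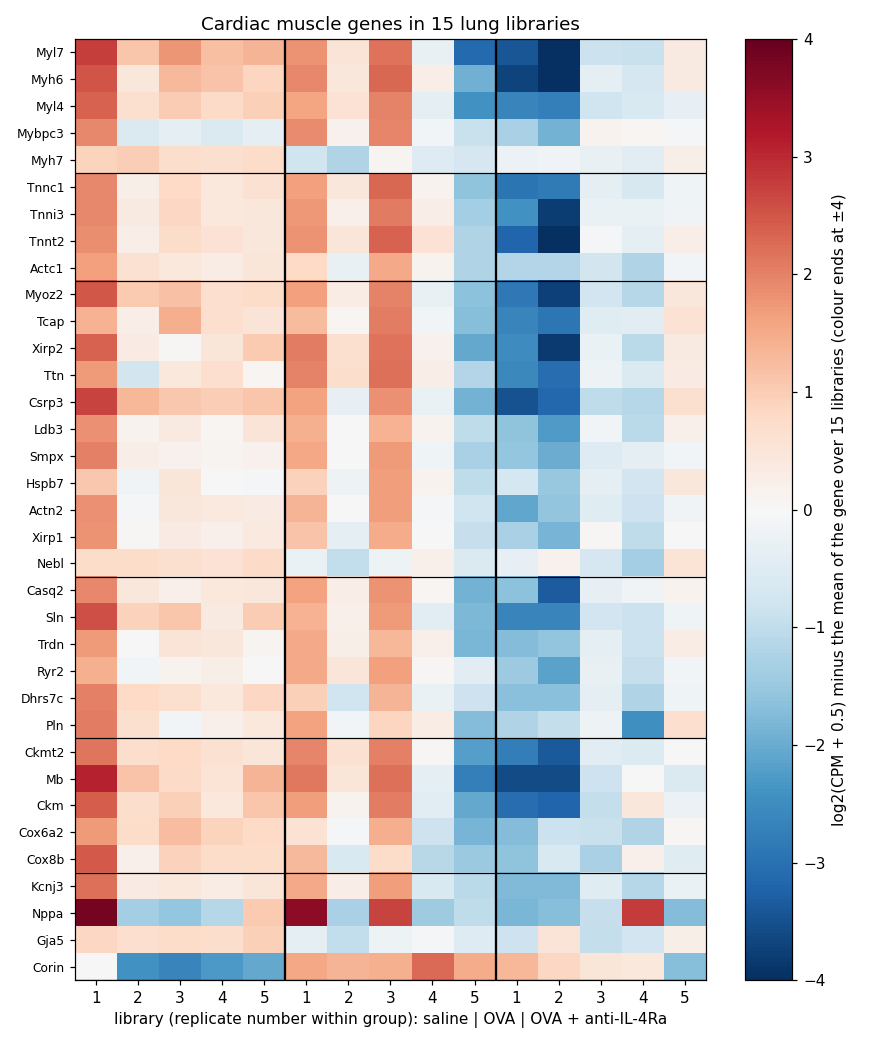
Log2(CPM + 0.5) of each of the 35 genes (rows, grouped by role) in each of the 15 libraries (columns), as the difference from the mean of the gene over all libraries; black lines separate the 3 groups and the roles. Saline library 1 and OVA libraries 1 and 3 are red and anti-IL-4Ra libraries 1 and 2 blue in most rows, while Myh7, Nebl, Gja5 and Corin do not follow these columns.

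Among the myosin genes, the atrial light chains and the alpha heavy chain placed the libraries in a similar order, and the beta heavy chain Myh7 had another. Myl7, the atrial regulatory light chain, was at 125, 38.9, 61.8, 41.7 and 46.7 CPM in saline libraries 1 to 5, at 62.98, 26.04, 82.9, 14.5 and 1.64 CPM in OVA libraries 1 to 5 and at 1.24, 0.344, 9.79, 9.42 and 23.3 CPM in anti-IL-4Ra libraries 1 to 5. All anti-IL-4Ra libraries lay below all saline libraries, and the OVA libraries spanned both groups. The highest Myl7 level was 362-fold the lowest, which rested on 5 counts in anti-IL-4Ra library 2. Myl4, the atrial essential light chain, was at 130.1, 38.9, 50.1, 42.4 and 48.1 CPM in saline libraries 1 to 5, at 74.04, 37.1, 98.5, 19.3 and 4.20 CPM in OVA libraries 1 to 5 and at 3.55, 3.31, 14.05, 15.9 and 19.6 CPM in anti-IL-4Ra libraries 1 to 5. Its highest and lowest library in each group were those of Myl7, with anti-IL-4Ra again below saline throughout.

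Myh6, the alpha heavy chain that predominates in the adult mouse heart, was at 1284, 303, 546, 492 and 405 CPM in saline libraries 1 to 5, at 853, 307, 1102, 268 and 58.97 CPM in OVA libraries 1 to 5 and at 16.5, 7.09, 174, 139.8 and 285 CPM in anti-IL-4Ra libraries 1 to 5. Anti-IL-4Ra library 5 came close to saline library 2, and the other anti-IL-4Ra libraries were lower. Myh7, the beta heavy chain of slow skeletal fibres and the embryonic ventricle, was at 171, 182, 151, 143 and 153 CPM in saline libraries 1 to 5, at 52.9, 39.02, 97.7, 63.8 and 57.7 CPM in OVA libraries 1 to 5 and at 77.6, 82.1, 73.6, 67.02 and 107 CPM in anti-IL-4Ra libraries 1 to 5. The saline libraries were all above both other groups, and library 1 was not the highest of them. Myh7 means were 160.0 ± 16.1 CPM in saline lungs, 62.2 ± 21.8 CPM in OVA lungs, 81.5 ± 15.4 CPM in anti-IL-4Ra lungs (SD, n = 5). The number of Myh6 counts per Myh7 count ran from 16.1 in OVA library 1 to 0.0864 in anti-IL-4Ra library 2. Both heavy chain genes lie on chromosome 14 and had expected counts that were not whole in 15 of 15 libraries, so some reads were shared out between related transcripts. This also held for Actn2, Ryr2, Hspb7 and Gja5 in all 15 libraries and for Ckm in 14. In the GENCODE annotation, exons of Ckm, Cox6a2, Gja5, Mb and Pln overlap a gene on the opposite strand and exons of Tnni3 one on the same strand, so counts of these 6 genes could hold reads of a neighbour. Mybpc3, the cardiac myosin binding protein C, ranged over 4.30 to 26.6 CPM in saline, 3.38 to 27.6 CPM in OVA and 1.45 to 7.46 CPM in anti-IL-4Ra libraries, and the groups overlapped.

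**Figure D2:**
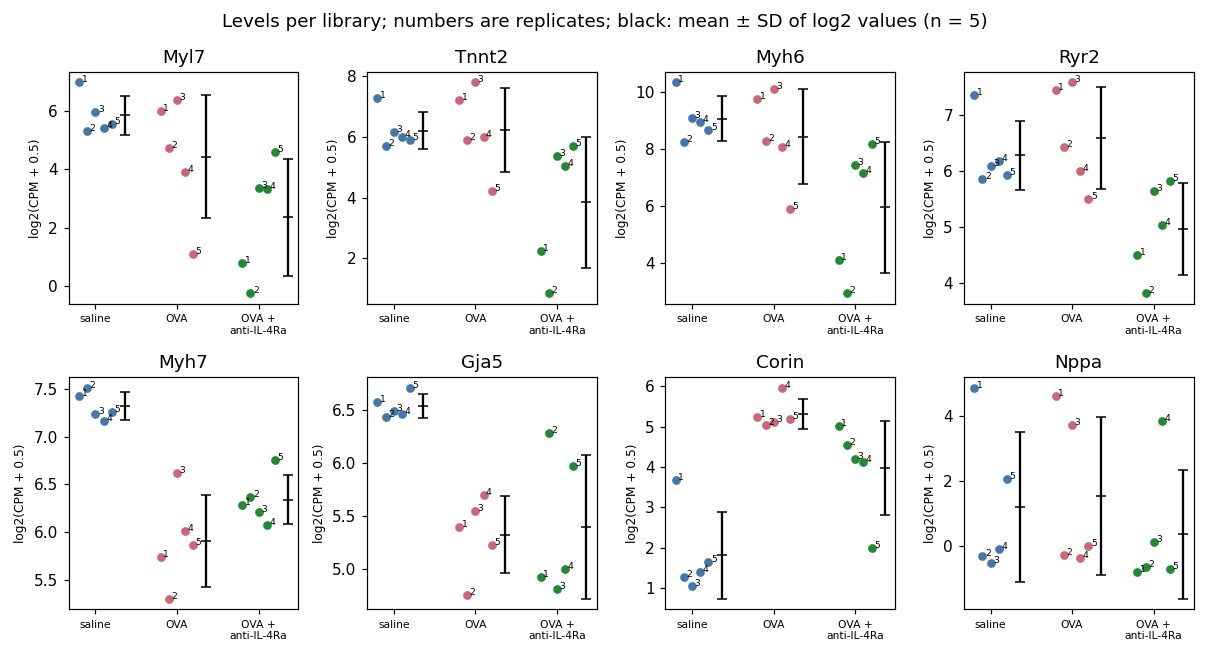
Log2(CPM + 0.5) of 8 genes in each library (points, numbered by replicate) of the 3 groups, with the mean ± SD of the log2 values in black (n = 5). Myl7, Tnnt2, Myh6 and Ryr2 place the libraries in a similar order with anti-IL-4Ra libraries 1 and 2 at the bottom, whereas Myh7 and Gja5 are highest in all saline libraries and Corin lowest in 4 of them.

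Thin filament genes followed the light chains, Actc1 less closely than Tnnt2, Tnni3 and Tnnc1. Tnnt2, the cardiac troponin T that anchors the troponin complex to tropomyosin, was at 154, 51.5, 70.9, 62.8 and 58.7 CPM in saline libraries 1 to 5, at 147, 59.3, 219.7, 62.7 and 18.3 CPM in OVA libraries 1 to 5 and at 4.21, 1.31, 40.9, 32.03 and 51.5 CPM in anti-IL-4Ra libraries 1 to 5. Anti-IL-4Ra library 5 and saline library 2 met at 51.5 CPM, and OVA library 3 was the highest of all 15. Actc1, the cardiac alpha actin, was at 152, 74.6, 65.5, 60.3 and 69.4 CPM in saline libraries 1 to 5, at 84.8, 39.4, 141, 54.4 and 21.02 CPM in OVA libraries 1 to 5 and at 21.6, 21.5, 28.96, 21.2 and 45.4 CPM in anti-IL-4Ra libraries 1 to 5. Its anti-IL-4Ra libraries lay within a narrow span, all below saline. Tnnc1, the calcium-binding troponin C of heart and slow muscle, was at 27.8, 8.33, 12.4, 9.47 and 10.99 CPM in saline libraries 1 to 5, at 22.6, 9.76, 36.5, 7.80 and 1.95 CPM in OVA libraries 1 to 5 and at 0.496, 0.551, 5.33, 4.31 and 6.19 CPM in anti-IL-4Ra libraries 1 to 5. Anti-IL-4Ra libraries 1 and 2 were again far below their group, each under 1 CPM. Tnni3, the cardiac inhibitory troponin, ranged over 22.2 to 66.6 CPM in saline, 6.36 to 74.1 CPM in OVA and 0.757 to 15.4 CPM in anti-IL-4Ra libraries. Tnnt2 counts per Myl7 count were 1.15 to 1.51 in saline, 2.28 to 11.1 in OVA and 2.20 to 4.18 in anti-IL-4Ra libraries, so this ratio did not overlap between saline and either ovalbumin group. No test of this ratio was made, and the highest value rests on 16 Myl7 counts.

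Z-disc and scaffold genes were the largest role. Ttn, which encodes the giant elastic filament titin, was at 1606, 296, 661, 781 and 515 CPM in saline libraries 1 to 5, at 1948, 804, 2284, 587 and 217 CPM in OVA libraries 1 to 5 and at 82.4, 59.3, 426, 329 and 616 CPM in anti-IL-4Ra libraries 1 to 5. OVA libraries 1 and 3 exceeded every saline library, and anti-IL-4Ra libraries 1 and 2 were the lowest. Actn2, the alpha-actinin that cross-links thin filaments at the Z-disc, was at 56.4, 14.8, 21.4, 20.3 and 19.4 CPM in saline libraries 1 to 5, at 40.1, 15.1, 50.3, 14.5 and 8.72 CPM in OVA libraries 1 to 5 and at 3.30, 4.89, 10.98, 8.55 and 13.97 CPM in anti-IL-4Ra libraries 1 to 5. Csrp3, the muscle LIM protein, was at 36.6, 13.8, 11.5, 10.7 and 11.6 CPM in saline libraries 1 to 5, at 16.7, 3.97, 19.6, 4.17 and 1.03 CPM in OVA libraries 1 to 5 and at 0, 0.138, 2.26, 2.09 and 8.29 CPM in anti-IL-4Ra libraries 1 to 5. For Actn2 and Csrp3 all anti-IL-4Ra libraries were below all saline libraries, and saline library 1 was far above the rest of its group.

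Myoz2, a Z-disc protein that binds calcineurin, was at 36.8, 13.3, 14.4, 10.1 and 10.6 CPM in saline libraries 1 to 5, at 20.2, 7.61, 26.01, 4.86 and 1.64 CPM in OVA libraries 1 to 5 and at 0.413, 0, 3.40, 2.49 and 8.52 CPM in anti-IL-4Ra libraries 1 to 5. Saline library 1, OVA library 3 and anti-IL-4Ra library 5 were its highest, as for Csrp3, and anti-IL-4Ra library 2 held no count. Nebl, the nebulette that binds thin filaments near the Z-disc, was at 128, 129, 122, 115 and 133 CPM in saline libraries 1 to 5, at 64.6, 38.9, 67.95, 88.98 and 51.99 CPM in OVA libraries 1 to 5 and at 61.7, 86.97, 48.2, 30.1 and 114 CPM in anti-IL-4Ra libraries 1 to 5. Its saline libraries were nearly level and above both other groups, and saline library 1 did not stand out. The remaining genes of this role were Ldb3 (highest level of the 15 libraries, 39.7 CPM), Tcap (44.4 CPM), Xirp1 (10.01 CPM), Xirp2 (36.3 CPM), Smpx (7.42 CPM) and Hspb7 (44.6 CPM). Their lowest levels were 1.86, 0.964, 0.344, 0, 0 and 4.48 CPM in the same order, each in anti-IL-4Ra library 2.

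The calcium store genes act in excitation and relaxation of the muscle. Ryr2, the cardiac calcium release channel, was at 165, 57.4, 67.7, 72.1 and 60.9 CPM in saline libraries 1 to 5, at 176, 85.9, 192, 63.5 and 45.02 CPM in OVA libraries 1 to 5 and at 22.2, 13.6, 49.4, 32.4 and 56.6 CPM in anti-IL-4Ra libraries 1 to 5. Anti-IL-4Ra libraries were all below saline, with library 5 just under saline library 2. Sln, the atrial inhibitor of the calcium pump, was at 18.2, 5.50, 6.26, 3.54 and 5.86 CPM in saline libraries 1 to 5, at 7.73, 3.14, 9.79, 1.85 and 0.410 CPM in OVA libraries 1 to 5 and at 0, 0, 1.33, 1.21 and 2.27 CPM in anti-IL-4Ra libraries 1 to 5. Dhrs7c, a reductase of the sarcoplasmic reticulum, was at 5.95, 2.29, 2.02, 1.63 and 2.32 CPM in saline libraries 1 to 5, at 2.58, 0.413, 3.65, 0.821 and 0.410 CPM in OVA libraries 1 to 5 and at 0, 0, 0.732, 0.202 and 0.909 CPM in anti-IL-4Ra libraries 1 to 5. Both genes had no count in anti-IL-4Ra libraries 1 and 2. Casq2, the cardiac calcium buffer, ranged over 6.86 to 24.1 CPM in saline, 1.23 to 21.8 CPM in OVA and 0.138 to 6.59 CPM in anti-IL-4Ra libraries. Trdn, which links that buffer to the release channel, ranged over 2.05 to 7.72 CPM in saline, 0.205 to 6.74 CPM in OVA and 0.248 to 2.61 CPM in anti-IL-4Ra libraries. Pln, the other small inhibitor of the pump, was less closely tied to the rest, and its lowest level, 1.75 CPM, was in anti-IL-4Ra library 4.

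In all 5 genes of energy and oxygen supply, saline library 1 was the highest and OVA library 5 the lowest of its group. OVA library 3 was the highest of its group in each of them but Cox8b, and anti-IL-4Ra library 4, not 5, was the highest for Mb, Cox8b and Ckm. Mb, the oxygen-storing myoglobin, was at 49.9, 12.9, 9.69, 8.28 and 15.1 CPM in saline libraries 1 to 5, at 25.7, 7.94, 27.4, 4.10 and 0.410 CPM in OVA libraries 1 to 5 and at 0, 0, 2.86, 5.65 and 3.52 CPM in anti-IL-4Ra libraries 1 to 5. Anti-IL-4Ra libraries 1 and 2 held no count, and saline library 1 was several times the level of its group. Cox6a2, a striated muscle subunit of cytochrome oxidase, was at 10.2, 5.04, 7.22, 5.61 and 5.19 CPM in saline libraries 1 to 5, at 4.47, 2.65, 8.58, 1.37 and 0.410 CPM in OVA libraries 1 to 5 and at 0.496, 1.31, 1.26, 0.942 and 2.90 CPM in anti-IL-4Ra libraries 1 to 5. Cox8b, another such subunit, was at 13.3, 2.44, 4.29, 3.70 and 3.73 CPM in saline libraries 1 to 5, at 5.76, 1.16, 3.72, 0.684 and 0.410 CPM in OVA libraries 1 to 5 and at 0.330, 1.17, 0.533, 2.42 and 1.31 CPM in anti-IL-4Ra libraries 1 to 5. Both had all anti-IL-4Ra libraries below all saline libraries, for Cox8b by a small margin. Ckm, the cytosolic muscle creatine kinase, ranged over 9.58 to 40.2 CPM in saline, 1.33 to 30.9 CPM in OVA and 0.344 to 9.82 CPM in anti-IL-4Ra libraries. Ckmt2, its mitochondrial counterpart, ranged over 6.60 to 22.1 CPM in saline, 0.615 to 20.3 CPM in OVA and 0 to 4.49 CPM in anti-IL-4Ra libraries.

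The hormone, channel and junction genes were the least alike. Nppa, which encodes atrial natriuretic peptide, was at 29.1, 0.310, 0.202, 0.436 and 3.73 CPM in saline libraries 1 to 5, at 24.3, 0.331, 12.9, 0.274 and 0.513 CPM in OVA libraries 1 to 5 and at 0.0826, 0.138, 0.599, 13.9 and 0.114 CPM in anti-IL-4Ra libraries 1 to 5. It was above 1 CPM in 5 libraries only, saline 1 and 5, OVA 1 and 3 and anti-IL-4Ra 4, while the other 10 held 1 to 9 counts each. Nppa counts per Myl7 count ran from 0.00327 in saline library 3 to 1.48 in anti-IL-4Ra library 4. Kcnj3, a subunit of the atrial potassium channel opened by acetylcholine, was at 7.38, 1.63, 1.77, 1.58 and 1.89 CPM in saline libraries 1 to 5, at 4.40, 1.57, 4.93, 0.616 and 0.308 CPM in OVA libraries 1 to 5 and at 0, 0, 0.732, 0.269 and 0.909 CPM in anti-IL-4Ra libraries 1 to 5. Its highest library in each group was that of Myl7, and anti-IL-4Ra libraries 1 and 2 held no count.

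Corin, the protease that converts the precursor of atrial natriuretic peptide to its active form, was at 12.3, 1.94, 1.56, 2.12 and 2.63 CPM in saline libraries 1 to 5, at 37.1, 32.6, 34.04, 61.96 and 36.1 CPM in OVA libraries 1 to 5 and at 31.98, 22.7, 17.8, 16.8 and 3.47 CPM in anti-IL-4Ra libraries 1 to 5. All OVA libraries were above all saline libraries, and anti-IL-4Ra libraries lay between them except library 5, which was within the saline range. Gja5, a connexin of atrial muscle and arterial endothelium, was at 95.4, 86.1, 89.6, 87.9 and 104 CPM in saline libraries 1 to 5, at 41.5, 26.5, 46.3, 51.4 and 36.9 CPM in OVA libraries 1 to 5 and at 29.8, 77.3, 27.6, 31.6 and 62.3 CPM in anti-IL-4Ra libraries 1 to 5. Saline libraries were the highest, and anti-IL-4Ra libraries 2 and 5 stood above the other 3 of their group.

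The shared variation was measured against Myl7 on log2(CPM + 0.5), after the mean of each group was removed, over 15 libraries. Pearson's r with Myl7 had a median of 0.92 over the other 34 genes and of -0.01 over all 15904 genes tested. Spearman's rho had a median of 0.92 over the 34. Of the 34, 27 had r of at least 0.8, a level reached by 0.522% of all genes. By a two-sided permutation test that moved libraries within groups 100000 times, 21 of the 34 had an adjusted p under 0.05 against 0.333% of all genes, with p-values adjusted over all 15904 genes. Ranked by Spearman's rho, 16 of the 34 passed the same test. The highest values were those of Ckmt2 (0.99), Myoz2 (0.98), Myh6 (0.97), Tnnc1 (0.97), Myl4 (0.97) and Tcap (0.97). For Myl4, rho was 0.97, the permutation p was 1e-05, the smallest that 100000 resamples can give, and the adjusted p was 0.0159.

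**Figure D3:**
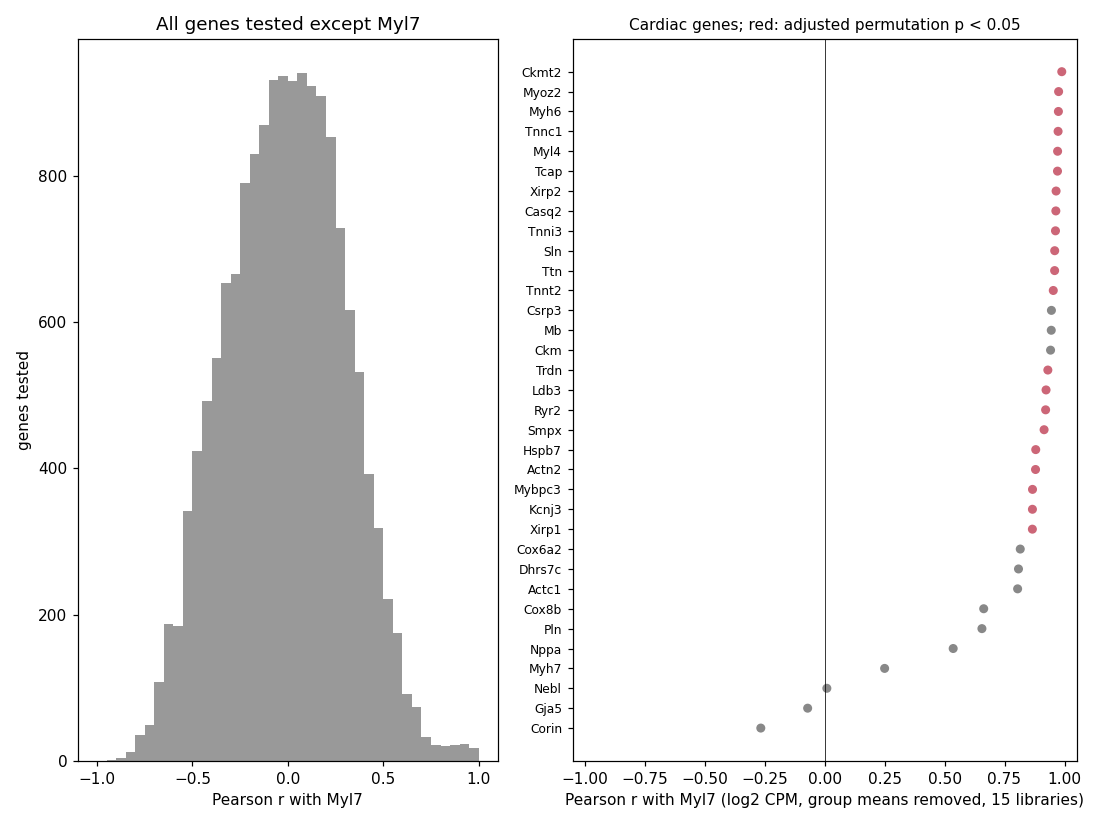
Left, histogram of Pearson's r with Myl7 over all 15904 other genes tested (vertical axis, number of genes). Right, r of each of the 34 other cardiac genes (log2(CPM + 0.5), group means removed, 15 libraries), in red where the adjusted permutation p is under 0.05; 27 genes lie at 0.8 or more, and Myh7, Nebl, Gja5 and Corin lie below 0.3.

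A few genes stood outside this shared pattern. Myh7 had r of 0.25, Nebl of 0.01, Gja5 of -0.07 and Corin of -0.27, none of which passed the test. Nppa was at 0.54, Pln at 0.66 and Cox8b at 0.66, also without passing. Their lack of a call does not show that these genes vary independently of Myl7. Without the 2 libraries farthest from the median of Myl7, OVA 5 and anti-IL-4Ra 2, 25 of the 34 genes still had r of at least 0.8 and the median was 0.91, but 0 passed the adjusted permutation test, beside 28 with an unadjusted p under 0.05, and no other gene with a positive r passed. With 1 library left out at a time, the median r ran from 0.90 to 0.94 and the number at 0.8 or more from 24 to 28. The number that passed the test ran from 0 to 19: it was 0 without saline library 1, OVA library 1, OVA library 3 or OVA library 5, 4 without OVA library 4, and 13 without OVA library 2 or anti-IL-4Ra library 1. The size of the correlation was therefore steadier than its call.

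Many heart genes outside the 35 also varied with Myl7. Of 34 further heart genes listed, 26 were tested, and their median r with Myl7 was 0.81. Of the 26, 14 had r of at least 0.8, beside 0.522% of all genes, and 9 passed the test, beside 0.333% of all genes. In all, 32 genes outside the 35 passed. By edgeR, 2 of the 26 were lower and 0 higher in OVA than in saline lungs, a share below the 37.1% of all genes that passed. In anti-IL-4Ra against saline lungs 14 of the 26 were lower, beside 12.7% of all genes, and 0 were higher. The 12 tested genes most like the mean profile of the 35, over 15 libraries, were Lmod2 (r = 0.99), Hrc (0.98), Nrap (0.98), Srl (0.98), Mybphl (0.97), Rbm20 (0.97), Txlnb (0.97), Akap6 (0.97), Trim72 (0.97), Synpo2l (0.97), Eef1a2 (0.97) and Mypn (0.96). Lmod2, Hrc, Srl, Mybphl and Rbm20 were on that list of heart genes. Of 5 markers of the ventricle listed, 2 passed the filter on low counts, Myl3 and Hey2. By edgeR, Hey2 had log2 fold changes of -0.97 ± 0.42 (SE) in OVA and -0.52 ± 0.40 in anti-IL-4Ra against saline lungs. Neither passed. The other markers listed, Myl2, Irx4 and Nppb, were too scarce to be tested. Myl2, the ventricular regulatory light chain, had 15 counts over all 15 libraries and none in 9 of them, and Irx4 had 1 count in all. Nppb had 35 counts. Myl3, the ventricular essential light chain, ranged from 0 to 3.17 CPM, with r of 0.85 with Myl7 that did not pass the permutation test (adjusted p = 0.216). By edgeR it was lower in anti-IL-4Ra than in saline lungs, with a log2 fold change of -2.06 ± 0.67 (SE), adjusted p = 0.0339. Bmp10, an atrial gene of the adult mouse heart, had 8 counts. Atrial light chains were thus measured in every library and the ventricular regulatory light chain was nearly absent. Atrial and pulmonary vein muscle share these genes and were not separated.

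Between OVA and saline lungs the libraries overlapped for most of the cardiac genes. In the OVA lungs Myh7, Gja5 and Nebl were lower than in saline lungs, and Corin was higher. By edgeR's quasi-likelihood test, with p-values adjusted over all 15905 genes, these 4 of the 35 genes passed an adjusted p of 0.05, a share below the 37.1% of all genes that passed. The log2 fold change of Myh7 was -1.36 ± 0.20 (SE), adjusted p = 0.000162 by edgeR. Gja5 fell by edgeR with -1.19 ± 0.26 (SE), adjusted p = 0.00274. For Nebl the edgeR value was -1.003 ± 0.28 (SE), adjusted p = 0.0114. Corin rose by edgeR with 3.27 ± 0.59 (SE), adjusted p = 0.000808, and without saline library 1 its estimate was 4.29. The same 4 genes were the ones whose OVA and saline libraries did not overlap, beside 26.6% of all genes.

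Of the 31 genes without a call, 26 had an estimate smaller than its error. Myl7 had a log2 fold change of -0.74 ± 0.81 (SE), Ryr2 of 0.41 ± 0.44 and Ttn of 0.60 ± 0.67, none past the threshold. Estimates larger than their error were those of Cox8b (-1.21 ± 0.65), Cox6a2 (-0.91 ± 0.54), Csrp3 (-0.88 ± 0.81), Dhrs7c (-0.83 ± 0.68) and Sln (-0.77 ± 0.75). Cox8b passed without OVA library 1 and Cox6a2 without OVA library 3. The median over the 35 genes was -0.18, and that over all genes 0.02. Under at least 1 other setting, 22 of the 35 genes changed the sign of their estimate, none of them called. With the Rn45s share as a covariate, 1 of the 4 calls remained, that of Myh7. That share did not overlap between saline and OVA libraries, so this setting cannot separate it from the group. Endothelial and epithelial lung markers were lower as well: of 6 lung markers tested, 5 were lower in OVA than in saline lungs, and Cdh5, an endothelial cadherin, was at 926 to 1281 CPM in saline and 254 to 527 CPM in OVA libraries. Red blood cell markers were lower too, 8 of 9 tested, with a median log2 fold change of -1.48 and sums of 3737 to 12270 CPM in saline and 1850 to 3200 CPM in OVA libraries. The part of these cell types in the lower Gja5, Nebl and Myh7 levels was not tested.

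The anti-IL-4Ra lungs had lower estimates than the OVA lungs for 32 of the 35 genes, and none passed the test. By edgeR 0 of 35 genes had an adjusted p under 0.05, beside 0.302% of all genes. An unadjusted p under 0.05 was found for 27, all lower, beside 5.68% of all genes. Most of the 35 genes varied together among libraries, so these 27 are not independent of each other. That number was 8 without OVA library 3, 11 without OVA library 1, 15 without anti-IL-4Ra library 1, and 3 without anti-IL-4Ra libraries 1 and 2 together, a setting chosen after the data were seen. DESeq2 called 1 gene, Ryr2. By edgeR, Ryr2 had a log2 fold change of -1.69 ± 0.45 (SE), adjusted p = 0.236. Myl7 had -2.08 ± 0.86 (SE), Kcnj3 -2.55 ± 0.87 and Tnnt2 -1.96 ± 0.76. Over the other settings Myl7 ran from -2.84 to -1.40, Kcnj3 from -3.16 to -1.88 and Tnnt2 from -2.37 to -1.29. The median over the 35 genes was -1.69, and that over all genes 0.00. Corin was the 1 gene of the 35 with all anti-IL-4Ra libraries below all OVA libraries, beside 0.66% of all genes, and its edgeR estimate of -1.13 ± 0.55 (SE), adjusted p = 0.908 did not pass. Myh7 went the other way with 0.39 ± 0.19, also short of the threshold. The OVA libraries enter both this comparison and the preceding one, so the estimates are not independent.

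Against saline lungs, anti-IL-4Ra lungs had less RNA of 17 cardiac genes, from atrial light chains to myoglobin and the calcium release channel, and more of Corin. These groups differed in both the ovalbumin treatment and the antibody given, and this comparison cannot tell the parts of the 2 apart. Of the 35, 18 had an adjusted p under 0.05 by edgeR, beside 26.6% of all genes, and 17 of these were lower in anti-IL-4Ra lungs, beside 12.7% of all genes. Another 13 of the 35 had an unadjusted p under 0.05 only, which makes 31 in all, beside 39.6% of all genes, and 17 without saline library 1 or without anti-IL-4Ra libraries 1 and 2 together. The groups did not overlap for 24 genes, all lower, beside 10.3% of all genes. Most of the 35 genes varied together, so these counts are not of independent genes. The median log2 fold change was -1.68 over the 35 genes and 0.02 over all genes. The saline libraries enter this comparison and the first one alike. Other cell types also differed here: 3 of 6 lung markers were lower, with a median log2 fold change of -1.005 over the 6, and 3 of 9 red blood cell markers, with a median of -1.25. Red blood cell markers summed to 556 to 7549 CPM in anti-IL-4Ra libraries. Of smooth muscle markers 1 of 10 was lower, and of skeletal muscle markers 1 of 10 was higher. None of 9 adipose or 6 mesothelial markers passed, with median log2 fold changes of -1.40 and -0.47. The SD of log2 CPM within groups had a median of 2.44 over the 9 adipose markers, so their lack of a call does not show equal levels. The part of these cell types in the lower cardiac genes was not tested.

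The calls were spread over all the roles. Myosin genes that fell were Myl7, with an edgeR log2 fold change of -2.81 ± 0.88 (SE), adjusted p = 0.0272, Myl4 with -2.45 ± 0.68 and Myh7 with -0.97 ± 0.19. Myh6 had -2.28 ± 0.85 and did not pass (edgeR adjusted p = 0.0582), and its estimate ran from -2.85 to -1.63 over the other settings. In the thin filament, Actc1 fell with -1.61 ± 0.42 and Tnnc1 with -2.01 ± 0.71, and Tnnt2, at -1.61 ± 0.75, did not pass. The Tnnt2 estimate ran from -2.02 to -0.97 over the other settings. At the Z-disc, Actn2 fell with -1.66 ± 0.51, Csrp3 with -2.68 ± 0.88, Myoz2 with -2.49 ± 0.83 and Nebl with -0.88 ± 0.28, and Ttn, at -1.35 ± 0.68, did not pass.

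Among the calcium store genes, Ryr2 fell with -1.28 ± 0.45, Sln with -2.98 ± 0.84 and Dhrs7c with -2.86 ± 0.78. Of the energy genes, Mb fell with -2.97 ± 0.97, Cox6a2 with -2.24 ± 0.57 and Cox8b with -2.24 ± 0.68. Kcnj3 fell with -2.82 ± 0.85 and Gja5 with -1.02 ± 0.26. Corin was the 1 gene that rose, by edgeR with 2.14 ± 0.58 (SE), adjusted p = 0.0134, and without saline library 1 its estimate was 3.17. The errors are SE of log2 fold changes throughout.

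**Figure D4:**
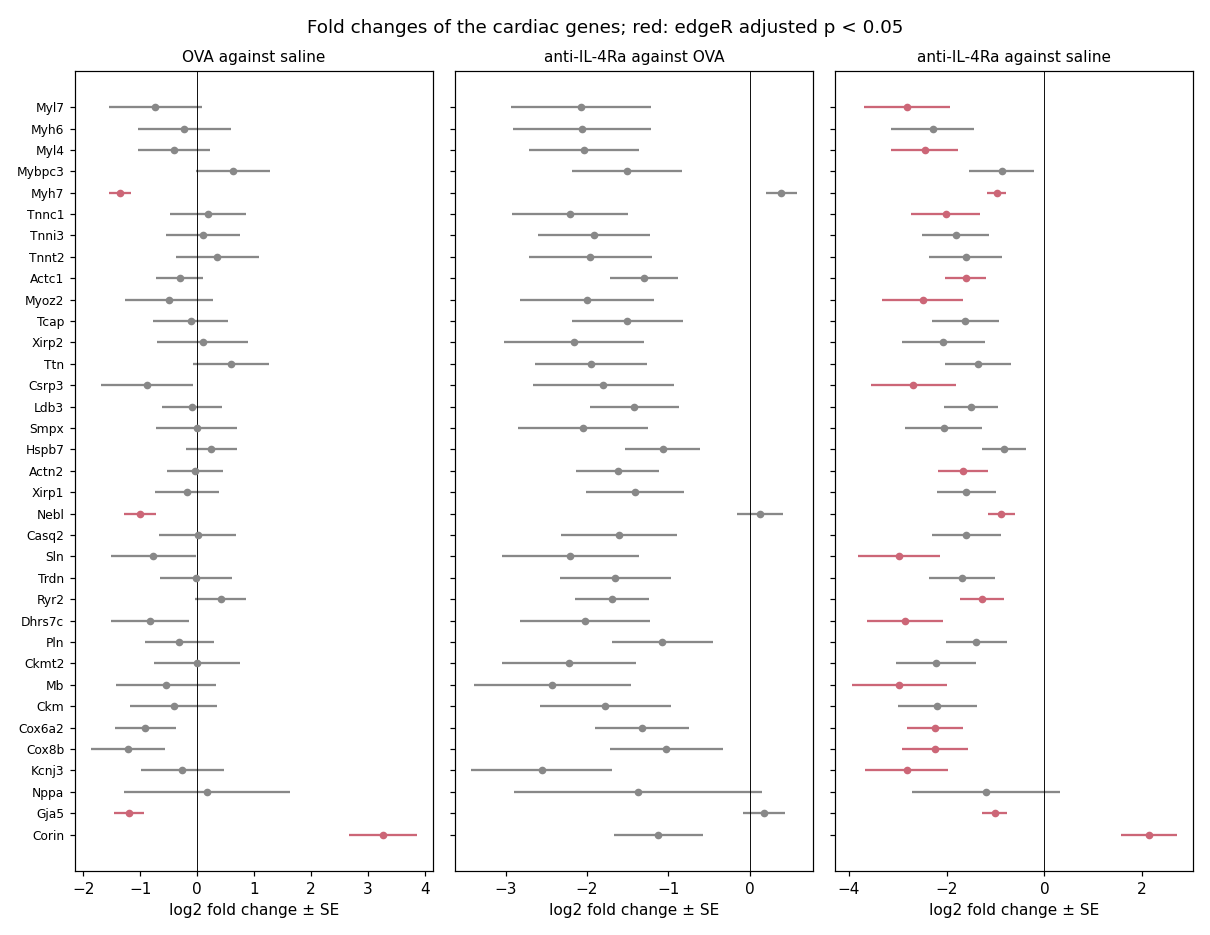
Log2 fold change ± SE by edgeR of the 35 genes (rows) in the 3 comparisons (panels), in red where the adjusted p is under 0.05. OVA against saline has 4 red points, anti-IL-4Ra against OVA none, and anti-IL-4Ra against saline 18, of which Corin alone lies to the right of 0.

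These calls rested on few libraries. Without saline library 1, 7 of the 35 genes passed, without anti-IL-4Ra library 1, 8, and without anti-IL-4Ra library 3, 10. Without anti-IL-4Ra libraries 1 and 2 together, 2 passed, Gja5 and Myh7. Without OVA library 5 the count was 26 and without anti-IL-4Ra library 5 it was 27. Fold changes moved as well. Without saline library 1 the log2 estimate of Mb was -2.23, that of Kcnj3 -2.07 and that of Cox8b -1.60, none of which passed. Without anti-IL-4Ra library 5 the estimates were larger and still passed, with Csrp3 at -3.87, Myl7 at -3.58, Sln at -3.58, Dhrs7c at -3.52, Kcnj3 at -3.43 and Myoz2 at -3.41. Without anti-IL-4Ra libraries 1 and 2 the estimates of these 6 genes, Mb and Tnnc1 lay between -2.31 and -1.41 and did not pass. With the Rn45s share of each library as a covariate, 0 passed by edgeR and 12 had an unadjusted p under 0.05. Only anti-IL-4Ra library 5, at 1.65%, lay within the saline range of that share, so this setting separates share and group poorly. The part of that share in the result was not tested further.

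Markers of other tissues were read in the same libraries. The summed adipose markers ranged from 35.4 to 3826 CPM in saline, 29.6 to 763 in OVA and 16.0 to 1316 in anti-IL-4Ra libraries, and were highest in saline library 1, OVA library 1 and anti-IL-4Ra library 4. Of 9 adipose markers tested, none passed the test with Myl7, and their median r was 0.55. OVA library 3, with high cardiac genes, had a sum of 90.1 CPM, above OVA libraries 2, 4 and 5. OVA library 5 and anti-IL-4Ra libraries 1 and 2, low in cardiac genes, had the lowest sums of their groups, 29.6, 16.0 and 21.8 CPM. In saline the lowest sum was in library 3, where the cardiac genes were not the lowest. Nppa was highest in each group in the library with the highest adipose sum. The adipocyte hormone Adipoq was at 233, 42.3 and 78.0 CPM in these 3 libraries. Among the 10 adipose markers listed, at most 3 were at 0 in any library. Their part in the levels of Nppa or of the other cardiac genes was not tested.

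Summed skeletal muscle markers ranged from 13.6 to 62.5 CPM in saline, 34.9 to 62.7 in OVA and 23.1 to 108 in anti-IL-4Ra libraries, with a median r of 0.34 over 10 tested. The fast myosin Myh4 had 218 of its 223 counts in anti-IL-4Ra library 4 and was at 0 in 12 libraries. Smooth muscle markers summed to 701 to 866 CPM in saline, 609 to 1497 in OVA and 551 to 1059 in anti-IL-4Ra libraries, with a median r of 0.34 over 10. OVA library 3 and anti-IL-4Ra library 5, both high in cardiac genes, had the highest smooth muscle sums of their groups. Their lung marker sums, 15709 and 19899 CPM, were also the highest of their groups. Saline library 1 had the lowest lung marker sum of its group, 18817 CPM. The part of these tissues in the cardiac levels was not tested. Median r with Myl7 was -0.04 over 6 lung markers, -0.25 over 6 of mesothelium, -0.19 over 9 of red blood cells, 0.00 over 4 of thymus, -0.02 over 3 of oesophagus and upper airway wall and 0.56 over 2 of the ventricle. None of these genes passed the test with Myl7. Rn45s had r of -0.21 with Myl7.

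**Figure D5:**
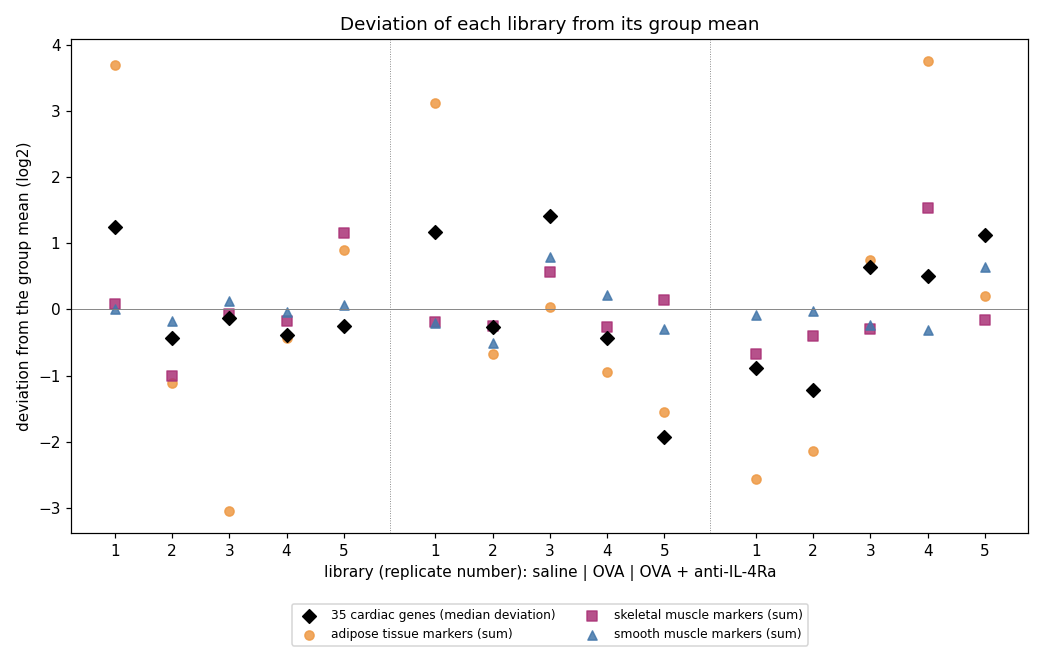
Deviation of each library from its group mean in log2 units: median over the 35 cardiac genes (black diamonds) and summed markers of adipose tissue, skeletal muscle and smooth muscle. Cardiac and adipose values are both high in saline library 1 and OVA library 1 and both low in OVA library 5 and anti-IL-4Ra libraries 1 and 2. OVA library 3 and anti-IL-4Ra library 5 are high in cardiac genes with adipose sums near their group mean. OVA library 3 and anti-IL-4Ra library 5 also have the highest smooth muscle sums of their groups, which saline library 1 and OVA library 1 do not.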

How the data were processed

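Whole lungs were snap frozen and homogenised, and strand-specific RNA-seq libraries were made, per the labels' protocols, which name both ribosomal RNA depletion and oligo-dT selection. The authors deposited 1 table of expected counts per gene, whose columns all matched a labelled sample (0 columns left out). The submitters' processing notes name Bowtie2 2.1.0 and RSEM 1.2.15 and a human genome build. Of the 24054 symbols, 22542 are current mouse RefSeq symbols and 1372 are mouse synonyms, so the annotation is taken as mouse. Neither its release nor the strand setting of the counting is stated in the labels or headers.

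Expected counts were rounded, filtered with filterByExpr, scaled by TMM and tested with edgeR 4.0.16 (glmQLFit and glmQLFTest, R 4.3.3) in 1 model of all 15 libraries, two-sided, with Benjamini-Hochberg adjustment over all genes and a threshold of 0.05. DESeq2 1.42.0 was an alternative. Correlations with Myl7 used log2(CPM + 0.5) minus group means and 100000 permutations within groups (numpy 2.4.6). Their p-values were adjusted over all tested genes, where the plan had adjusted them over the cardiac genes. The steps were tested on simulated data. The labels call the 5 libraries of a group biological replicates, and replicate pairs differed beyond sampling noise. Alternatives were RLE scaling, no filter, 2 groups only, a replicate block, the Rn45s share as a covariate, log2(CPM + 2), plain totals, and each library left out in turn. The p-values and floors of counts cover the spread of these libraries and counting error only.

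The 35 genes, their roles, the marker lists and the settings were chosen with earlier results of these data known. Values in every library are given for atrial genes, both heavy chains, each gene called in any comparison and the gene of highest mean CPM in each role, and ranges for the others. Of other genes, the 12 with the highest correlation to the mean profile are named. The chromosomes of start regions are from RefSeq on GRCm38.p6.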

Additional observations from a re-analysis of the deposited data

Results flagged for a closer look

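In 18 of the 105 sets of 5 libraries examined (35 genes in 3 groups), 1 library lay farther from the rest than Dixon's 95% critical value of 0.71 for the gap over the range. Chance alone marks about 5% of such sets, but sets of genes that vary together are not independent. The value came from saline library 1 in 16 of the 18. Among contractile and Z-disc genes in that library, Myl4 was at 130.1 CPM, Actc1 at 152 CPM, Mybpc3 at 26.6 CPM, Actn2 at 56.4 CPM, Myoz2 at 36.8 CPM, Ldb3 at 39.7 CPM, Csrp3 at 36.6 CPM, Xirp1 at 10.01 CPM and Smpx at 7.42 CPM. Of the calcium store and energy genes, Ryr2 was at 165 CPM, Casq2 at 24.1 CPM, Trdn at 7.72 CPM, Dhrs7c at 5.95 CPM and Ckmt2 at 22.1 CPM. Kcnj3 was at 7.38 CPM and Corin at 12.3 CPM. The adipose markers of the same library summed to 3826 CPM, and their part in these levels was not tested. Outside saline library 1, Nppa was at 13.9 CPM in anti-IL-4Ra library 4, where the next highest of its group was 0.599 CPM, and Corin was at 61.96 CPM in OVA library 4, beside 37.1 CPM.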

How the results depend on the processing

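The 4 genes called between OVA and saline lungs, Corin, Gja5, Myh7 and Nebl, were called again under RLE scaling, without the filter, with DESeq2, with 2 groups only and with each library left out, where the count ran from 4 to 5. With the Rn45s share as a covariate the count was 1, where Corin was at a log2 fold change of 2.34, Gja5 at -0.40 and Nebl at -0.14. That share did not overlap between saline and OVA libraries. Between anti-IL-4Ra and OVA lungs the count was 0 and stayed there with each library left out (0 to 0), and DESeq2 gave 1. Between anti-IL-4Ra and saline lungs 18 genes were called, 24 by DESeq2, 25 with 2 groups only, 0 with the Rn45s covariate, 7 to 27 with 1 library left out and 2 without anti-IL-4Ra libraries 1 and 2 together, a setting chosen after the data were seen. A replicate block gave 8 there, all among the 18. The labels do not state that same-numbered libraries are paired. Their deviations correlated at a median of -0.17, and 2 of 15 libraries were most like one of their own number. These values cannot show whether animals were matched in handling. The count of correlations with Myl7 was 21, with 0 to 19 when 1 library was left out and 0 without the 2 libraries farthest from the median, settings with fewer samples. It was 20 with plain totals, 21 with log2(CPM + 2) and 27 with group means kept. The median SD within groups was 1.10, 0.91 with log2(CPM + 2) and 0.98 to 1.15 with 1 library left out. Signs of 22 of the 35 estimates between OVA and saline lungs, and of 2 in each other comparison, changed under some setting, none of them called. The causes of these changes were not tested. Depth limits the lowest libraries, where Myl7 rested on 5, 15 and 16 counts.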

Other observations

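Nkx2-5, a transcription factor of heart muscle, was near the limit of detection, at 0 to 0.715 CPM over the 15 libraries with 57 counts in all. Hcn4, the main pacemaker channel of the heart, was at 3.39 CPM in saline library 1 and at 0.0826 to 0.853 CPM in the other 14. Tbx5, a factor of both heart and lung mesenchyme, was at 21.4 to 62.6 CPM and had a Pearson r of -0.04 with Myl7 (group means removed, 15 libraries). Kcnj5, the partner subunit of Kcnj3, ranged from 0.165 to 18.2 CPM and had r of 0.87 with Myl7. Fabp3, a fatty acid carrier of heart muscle, ranged from 0.513 to 38.7 CPM with r of 0.92. Atp2a2, the calcium pump that Pln and Sln inhibit and which many cell types express, was at 360 to 969 CPM with r of 0.69.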
